A study of Mus musculus with 5 samples.

Results

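DNA replication and S phase genes were taken as 47 named genes that serve origin licensing, the replication fork, nucleotide synthesis and entry into S phase, and each of the 47 was found by its symbol among the 24319 genes of the table. The table holds FPKM values (fragments per kilobase of transcript, scaled to the mapped fragments of the library) from bulk RNA-seq of mouse mammary luminal cells in 5 libraries. Lum1, Lum2 and Lum3 were labelled wild type, and Lum4 and Lum5 were labelled Brca1 knockout. These library names are the submitters' and are not cell clusters. The labels give every library a mixed strain background and mammary tissue, and they give no age, stage, treatment or animal. The methods of the study describe virgin and pregnant females, a few months old, as donors of gland cells. Which of these stages gave each library is not stated in the labels.

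In the mice of the study Cre recombinase under the MMTV promoter, which is active in mammary epithelium, deletes a floxed Brca1 (MMTV-Cre; Brca1 fl/fl), and luminal cells were sorted by their surface levels of CD24 and CD29. Some mice of the study also carried a floxed Trp53, and the labels name no Trp53 genotype for these libraries. The study speaks of its luminal cells as BRCA1-deficient, whereas the labels give 3 libraries as wild type, so every genotype here is named as labelled. Brca1 itself, the targeted gene, was at 1.30, 1.32 and 0.234 FPKM in Lum1, Lum2 and Lum3 and 1.20 and 1.34 FPKM in Lum4 and Lum5. It did not separate the labels, and a floxed gene can still give reads outside the deleted exons. Nothing in the labels ties the libraries to separate animals, so a p-value here measures only the spread between these libraries.

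DNA replication starts at origins that are licensed in G1, when the origin recognition complex (Orc1 to Orc6), Cdc6 and Cdt1 load the Mcm2 to Mcm7 helicase onto DNA. In S phase Cdc45 and the GINS complex switch the helicase on, primase and the polymerases copy both strands behind it, and the Pcna clamp, Fen1 and Lig1 finish the lagging strand. Many of these genes are transcribed by E2F factors once cyclin-dependent kinases release the factors from Rb. The RNA of these genes is therefore widely read as a sign of cycling cells. In the mammary gland the luminal epithelium expands in pregnancy. In bulk RNA, fewer cycling cells and less RNA per cell cannot be told apart.

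The E2F letters were searched in promoters because the members share this regulator in textbooks and the rule that chose them did not use sequence. A RefSeq promoter table of GRCm38.p6, which lists 27025 genes with a window from 250 bases before to 50 bases after each start, held 38 of the 47 genes. Gmnn, Mcm4, Gins1, Gins2, Gins4, Rfc2, Prim2, Pole and Ccne2 were not matched. The site was searched on both strands in 4 spellings (TTTCCCGC, TTTGGCGC, TTTCGCGC and TTTGCCGC), which can overlap each other when they face opposite ways. At least 1 of them was found in 14 of 38 members (36.8%), against 704 of the 27025 genes of the promoter table (2.61%) and 418 of its 8604 genes that were also tested below (4.86%). The CCAAT letters were in 23 of 38 members (60.5%), against 41.1% of the promoter table and 42.7% of its genes tested. TTTGAA, the letters of the CHR element of mitotic promoters, was in 5 of 38 (13.2%), against 20.2% and 13.9%, so the members were close to the genes tested. These matches describe letters in a window and are not sites shown to be bound.

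Of the 14 members, 5 are shown, with the 250 bases before the start, 5′ to 3′ on the gene's strand, and the E2F letters in capitals. Mcm5 and Mcm6 are shown because matches on opposite strands overlap there, Cdc6 and Orc1 because they are among the members with the lowest level in Lum3 relative to the other libraries, and Orc3 because it carries the letters and its level hardly varied.
Mcm5, chr8:75109259-75109508, plus strand: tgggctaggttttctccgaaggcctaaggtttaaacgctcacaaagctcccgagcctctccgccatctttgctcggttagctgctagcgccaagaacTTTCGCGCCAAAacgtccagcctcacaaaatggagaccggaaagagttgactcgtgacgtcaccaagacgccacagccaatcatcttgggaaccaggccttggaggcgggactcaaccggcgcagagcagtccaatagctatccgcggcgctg
Mcm6, chr1:128359706-128359955, minus strand: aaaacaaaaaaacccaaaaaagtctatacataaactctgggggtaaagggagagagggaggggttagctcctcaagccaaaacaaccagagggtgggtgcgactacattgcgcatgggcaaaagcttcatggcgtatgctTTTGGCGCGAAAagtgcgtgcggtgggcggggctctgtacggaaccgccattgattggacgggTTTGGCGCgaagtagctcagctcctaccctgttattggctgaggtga
Cdc6, chr11:98907901-98908150, plus strand: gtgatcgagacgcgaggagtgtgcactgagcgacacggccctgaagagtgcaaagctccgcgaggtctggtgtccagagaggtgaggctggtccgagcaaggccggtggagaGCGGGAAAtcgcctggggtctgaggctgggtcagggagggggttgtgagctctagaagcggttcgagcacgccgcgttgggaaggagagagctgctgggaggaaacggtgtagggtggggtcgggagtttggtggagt
Orc1, chr4:108579204-108579453, plus strand: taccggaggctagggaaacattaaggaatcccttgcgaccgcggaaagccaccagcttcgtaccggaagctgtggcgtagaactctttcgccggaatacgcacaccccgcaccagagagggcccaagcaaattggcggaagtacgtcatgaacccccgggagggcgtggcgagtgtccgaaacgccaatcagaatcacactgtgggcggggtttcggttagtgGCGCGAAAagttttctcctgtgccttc
Orc3, chr4:34614943-34615192, minus strand: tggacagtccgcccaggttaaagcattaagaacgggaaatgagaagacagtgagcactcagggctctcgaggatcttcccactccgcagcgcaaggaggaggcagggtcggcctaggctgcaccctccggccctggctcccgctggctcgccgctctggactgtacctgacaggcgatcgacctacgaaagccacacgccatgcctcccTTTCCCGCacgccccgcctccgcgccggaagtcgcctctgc
In Mcm5 the first match begins 153 bases before the start and overlaps the next, at 149 bases. Mcm6 holds an overlapping pair at 110 and 106 bases and another match at 47 bases before the start. The match lies 138 bases before the start in Cdc6, 27 in Orc1 and 41 in Orc3. These starts are those of the promoter table, and the gene coordinates given below come from another annotation. By those coordinates Cdc6 begins at 98907801 and Orc1 at 108579423, so the matches of both lie inside the gene.

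The libraries differed in depth and in cell content, and Lum3 stood apart. Estimated from the spacing of low values, depth ran from 6280000 to 30200000 fragments, with Lum3 the deepest. The luminal keratins and Epcam were high in each library, with a summed level of the 6 luminal markers of 6364 to 10367 FPKM. The 5 mature luminal (hormone-sensing) markers, Esr1, Pgr, Prlr, Foxa1 and Ly6a, summed to 279 FPKM in Lum3 and to 16.7 to 39.7 FPKM in the other 4 libraries, and all 5 were highest in Lum3. Pgr, the progesterone receptor, was at 27.1 FPKM in Lum3 and at 0.111 to 0.714 FPKM elsewhere. The luminal progenitor list (Elf5, Kit, Aldh1a3 and Cd14) summed to 414 to 643 FPKM, with Lum3 at 546 FPKM, but its genes went opposite ways there. Elf5, a regulator of alveolar cells, was at 102 FPKM in Lum3 against 244 to 338 FPKM elsewhere, while Aldh1a3 and Cd14 were highest in Lum3, at 17.4 and 387 FPKM. Markers of other cells were higher in Lum2 and Lum3 than in the other 3 libraries: the 6 fibroblast markers summed to 109 FPKM in Lum2 and 86.0 FPKM in Lum3 against 3.0 to 12.6 FPKM, and the 6 immune markers to 252 and 44.5 FPKM against 4.59 to 7.56 FPKM. Cd3e of T cells and Kdr of endothelium were at 0 in Lum1 and Lum4, and Adgre1 of macrophages was at 0 in Lum1. The 7 basal markers summed to 13.5 FPKM in Lum3 and to 44.1 to 139 FPKM elsewhere, mostly through Krt14 (3.65 FPKM against 27.7 to 104 FPKM). Only 3 of the 7 (42.9%) were lowest in Lum3, against 51.8% of all genes tested. The part of these cell contents in the results below was not tested.

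Replication genes were expressed in every library. Of the 47 genes, 37 were at 1 FPKM or more in each library, and Ccne2 alone was under 1 FPKM in all 5. The median level of the 47 genes in log2(FPKM + 1) was 3.12, 2.92 and 1.90 in Lum1, Lum2 and Lum3 and 3.19 and 3.51 in Lum4 and Lum5. Over the 5 libraries taken as 1 group the mean of these medians was 2.93 ± 0.61 (SD, n = 5). The highest and the lowest library differed by 1.62, and by 0.59 when Lum3 was left out. Lum3 thus lay below the other 4 libraries, which lay closer to each other than to it. Exons of 14 of the genes (Mcm7, Orc2, Orc4, Orc6, Cdc45, Gins2, Rfc2, Rfc4, Rfc5, Pole2, Fen1, Lig1, Tk1 and Ccne2) overlap an exon of another protein-coding gene, on the opposite strand except for Pole2, and their levels are uncertain to that extent, since the library kit does not mark strand and TopHat was run with its defaults, which do not use it.

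**Figure D1:**
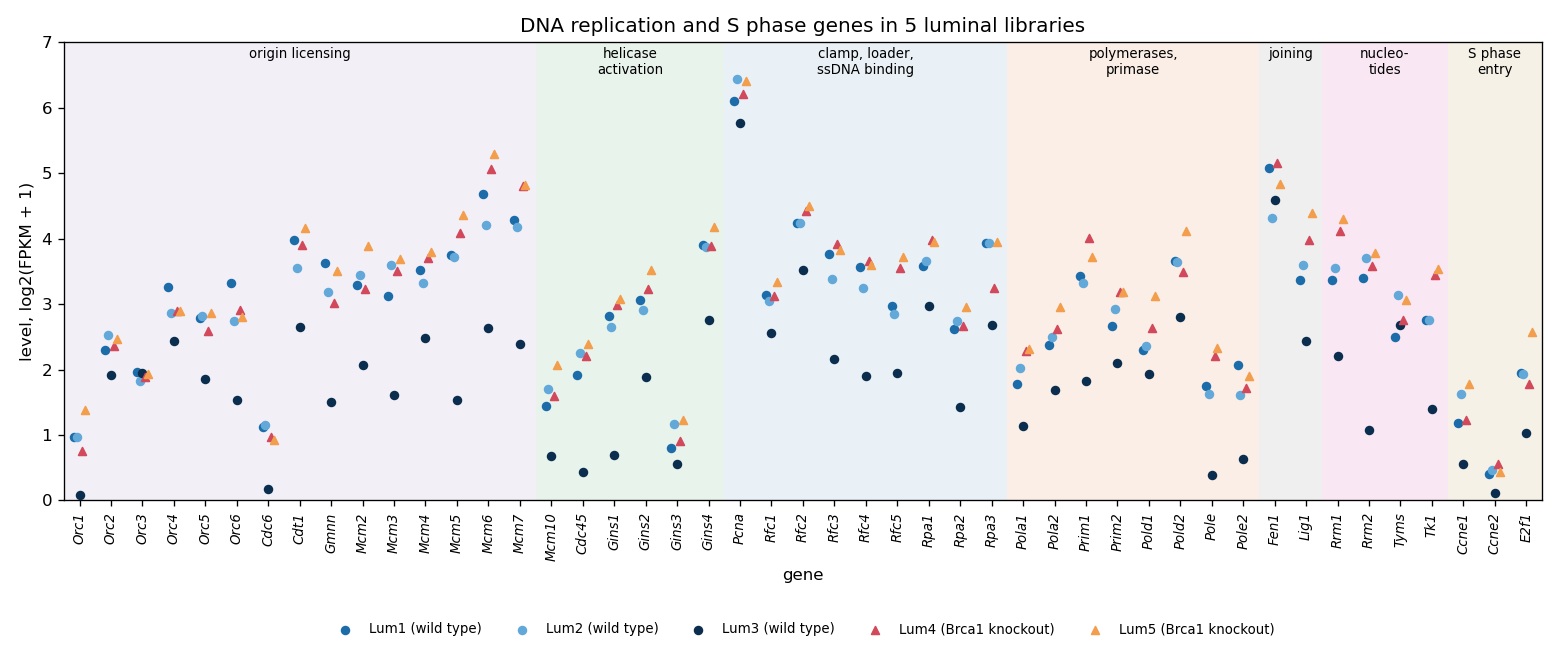
Levels in log2(FPKM + 1) (vertical axis) of the 47 genes (horizontal axis, shaded by role) in each library, with circles for wild type and triangles for Brca1 knockout. The darkest circle, Lum3, is the lowest point for 44 of the 47 genes, and Lum5 is the highest for 31.

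Lum3 was the lowest of the 5 libraries for 44 of the 47 genes. The exceptions were Orc3 and Fen1, lowest in Lum2, and Tyms, lowest in Lum1. Of the 43 genes that passed the filter of a mean of at least 1 FPKM, 40 (93.0%) were lowest in Lum3, against 51.8% of all 11481 genes tested. Lum3 minus the mean of the other 4 libraries had a median of -1.11 over the 47 genes and of -0.27 over all genes tested, both in log2(FPKM + 1). After median-of-ratios scaling, which moved the median level of all genes in Lum3 from 3.11 to 3.31, these medians were -0.90 and -0.03, and after quantile normalization they were -1.01 and -0.12. The count of 44 was the same under both. Lum3 was lower than the others by more than 1 log2 unit for 27 of the 47 genes, against 9.05% of all genes tested. The position of Lum3 is a description of 1 library, known from earlier results of these data, and carries no test.

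**Figure D2:**
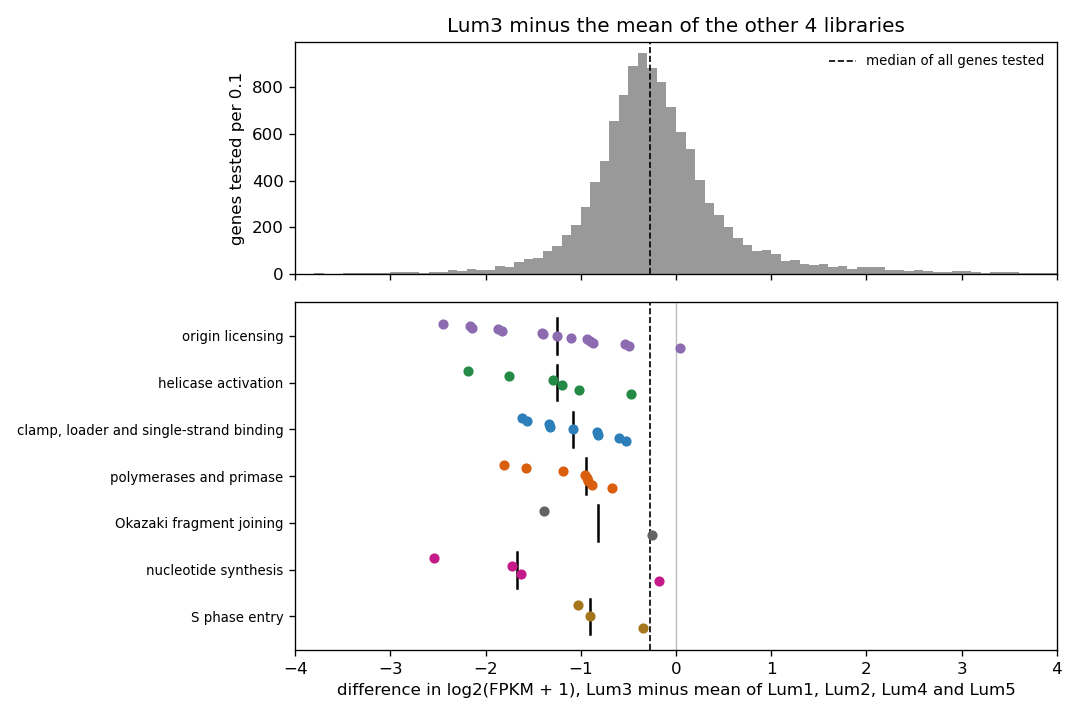
Difference in log2(FPKM + 1) between Lum3 and the mean of the other 4 libraries (horizontal axis), above as the number of genes tested per bin of 0.1, below as points for the 47 genes by role with a bar at each role's median. The dashed line is the median of all genes tested, -0.27, and the role medians lie between -0.82 and -1.67. Of the genes tested, 129 differ by more than 4 and fall outside the axis.

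Among the licensing genes the Mcm2 to Mcm7 helicase subunits were all lowest in Lum3. Mcm2 (minus strand of chromosome 6, from 88883474 up to 88898780 of mm10), a helicase subunit often used as a marker of cells licensed to replicate, was at 8.80, 9.95 and 3.21 FPKM in Lum1, Lum2 and Lum3 and 8.44 and 13.8 FPKM in Lum4 and Lum5. Its lowest value was in Lum3, and the labels overlapped in the other libraries. Mcm5 (plus strand of chromosome 8, from 75109569 up to 75128439) was at 12.4, 12.2, 1.90, 16.1 and 19.6 FPKM in Lum1 to Lum5, and Mcm3 at 7.71, 11.1, 2.05, 10.3 and 11.9 FPKM in Lum1 to Lum5. Both were several times lower in Lum3 than in any other library. Mcm6 (minus strand of chromosome 1, from 128331590 up to 128359664) was the highest of the helicase subunits per length in each library, at 24.7, 17.5, 5.24, 32.5 and 38.2 FPKM in Lum1 to Lum5. Mcm7 was at 18.5, 17.1, 4.22, 26.9 and 27.4 FPKM in Lum1 to Lum5, and Mcm4 at 10.5, 9.01, 4.60, 12.1 and 13.0 FPKM in Lum1 to Lum5. In Mcm4, Mcm5, Mcm6 and Mcm7 both libraries labelled Brca1 knockout were above all 3 labelled wild type, as in 17.5% of all genes tested.

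The loaders and their inhibitor were low in Lum3, and the origin recognition genes varied from one to the next. Cdc6 (plus strand of chromosome 11, from 98907801 up to 98923940), the ATPase that recruits the helicase to origins, was at 1.18, 1.23, 0.128, 0.960 and 0.903 FPKM in Lum1 to Lum5. Cdt1, its partner in loading, was at 14.8, 10.8, 5.29, 14.0 and 16.9 FPKM in Lum1 to Lum5, and Gmnn, which encodes the Cdt1 inhibitor geminin, at 11.4, 8.11, 1.84, 7.10 and 10.4 FPKM in Lum1 to Lum5. Each was lowest in Lum3, and none separated the labels. Orc1 (plus strand of chromosome 4, from 108579423 up to 108614833), the subunit that cycles with the cell, was at 0.960, 0.949, 0.0546, 0.687 and 1.59 FPKM in Lum1 to Lum5, which in Lum3 corresponded to about 4.97 fragments. It was the member with the lowest ratio of Lum3 to the mean of the other libraries, 0.05. Orc6 was at 9.03, 5.67, 1.90, 6.55 and 5.97 FPKM in Lum1 to Lum5, also lowest in Lum3. Orc2 to Orc5 varied less: Orc3 (minus strand of chromosome 4, from 34570796 up to 34614944) lay between 2.56 and 2.90 FPKM in all 5 libraries and had the highest ratio, 1.04. Orc2 lay between 2.79 and 4.80 FPKM, Orc4 between 4.43 and 8.60 FPKM and Orc5 between 2.62 and 6.28 FPKM. Within 1 complex, Orc1 and Orc3 thus stood at the 2 ends of the ratio of Lum3 to the other libraries.

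The helicase activators were low in Lum3 as a set of 6. Cdc45 (minus strand of chromosome 16, from 18780447 up to 18811987), which joins the helicase to form the active motor, was at 2.79, 3.75, 0.352, 3.62 and 4.25 FPKM in Lum1 to Lum5. Gins1 (plus strand of chromosome 2, from 150905400 up to 150931280), a subunit of the GINS complex, was at 6.06, 5.28, 0.618, 6.89 and 7.43 FPKM in Lum1 to Lum5. In both, Lum3 was at about 0.10 of the mean of the other libraries. Gins2 was at 7.32, 6.52, 2.69, 8.36 and 10.5 FPKM in Lum1 to Lum5 and Gins4 at 14.0, 13.6, 5.78, 13.8 and 17.1 FPKM in Lum1 to Lum5, while Gins3 was the lowest of the GINS genes in each library, at 0.746, 1.24, 0.472, 0.874 and 1.35 FPKM in Lum1 to Lum5. Mcm10, a scaffold at the fork, was at 1.73, 2.27, 0.607, 2.03 and 3.20 FPKM in Lum1 to Lum5. The median of the 6 in log2(FPKM + 1) was 0.69 in Lum3 and 2.37 to 2.73 in the other libraries.

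The clamp gene was the most abundant member per length, and its loader was low in Lum3. Pcna (minus strand of chromosome 2, from 132249162 up to 132253314), the sliding clamp that holds the polymerases on DNA, was the highest of the 47 genes in each library, at 67.7, 86.1 and 53.3 FPKM in Lum1, Lum2 and Lum3 and 72.9 and 84.0 FPKM in Lum4 and Lum5. Its value in Lum3 was 0.69 of the mean of the others, a smaller gap than in most members. The clamp loader subunits ran from Rfc1, between 4.88 and 9.10 FPKM, to Rfc2, between 10.4 and 21.5 FPKM. Rfc5 (minus strand of chromosome 5, from 117378103 up to 117389047) was at 6.86, 6.19, 2.84, 10.8 and 12.2 FPKM in Lum1 to Lum5, Rfc3 at 12.5, 9.47, 3.46, 14.1 and 13.3 FPKM in Lum1 to Lum5 and Rfc4 at 10.9, 8.48, 2.73, 11.6 and 11.0 FPKM in Lum1 to Lum5. All 5 were lowest in Lum3, as were 51.8% of all genes tested. In Rfc2 to Rfc5 both libraries labelled Brca1 knockout were above the wild type-labelled ones, as in 17.5% of all genes tested. The single-strand binding subunits Rpa1, Rpa2 and Rpa3 were at 6.84, 1.69 and 5.44 FPKM in Lum3 and at 11.0 to 14.8, 5.12 to 6.79 and 8.54 to 14.5 FPKM in the others. Rpa1 separated the labels, and Rpa2 and Rpa3 did not.

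Primase and the polymerases followed. Prim1 (plus strand of chromosome 10, from 128015168 up to 128030037), the catalytic subunit of primase, was at 9.78, 9.02 and 2.53 FPKM in Lum1, Lum2 and Lum3 and 15.2 and 12.2 FPKM in Lum4 and Lum5, and its partner Prim2 at 5.32, 6.59, 3.30, 8.12 and 8.10 FPKM in Lum1 to Lum5. Both separated the labels, and so did Pola1 and Pola2 of polymerase alpha, which starts each new strand, at 2.42, 3.06, 1.21, 3.87 and 3.95 FPKM in Lum1 to Lum5 and at 4.17, 4.67, 2.23, 5.18 and 6.75 FPKM in Lum1 to Lum5. For the lagging-strand polymerase delta, the catalytic Pold1 was at 3.91, 4.14, 2.83, 5.21 and 7.76 FPKM in Lum1 to Lum5 and separated the labels, whereas Pold2, at 11.6, 11.5, 5.95, 10.2 and 16.4 FPKM in Lum1 to Lum5, did not. Pole, the catalytic subunit of the leading-strand polymerase, was at 2.36, 2.08, 0.315, 3.60 and 4.02 FPKM in Lum1 to Lum5, with Lum3 at 0.10 of the mean of the others. Its partner Pole2, at 3.21, 2.06, 0.553, 2.29 and 2.73 FPKM in Lum1 to Lum5, overlapped between the labels. The catalytic subunits of alpha, delta and epsilon and both primase genes were therefore among the members with no overlap between the labels. Both Brca1 knockout values were above every wild type value in 17.5% of all genes tested.

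In lagging-strand joining, Fen1, the nuclease that trims the flap of each Okazaki fragment, was at 33.0, 18.8, 23.1, 34.6 and 27.7 FPKM in Lum1 to Lum5. It was lowest in Lum2 and overlapped between the labels. Lig1 (plus strand of chromosome 7, from 13277283 up to 13311433), the ligase that seals the fragments, was at 9.30, 11.1 and 4.43 FPKM in Lum1, Lum2 and Lum3 and 14.7 and 20.1 FPKM in Lum4 and Lum5. Lum3 was its lowest library and the labels did not overlap.

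Nucleotide synthesis held both the largest gap in Lum3 and 1 of the smallest. Rrm2 (plus strand of chromosome 12, from 24708241 up to 24714146), the S phase subunit of ribonucleotide reductase, was at 9.54, 12.1 and 1.12 FPKM in Lum1, Lum2 and Lum3 and 11.0 and 12.8 FPKM in Lum4 and Lum5, the largest difference of Lum3 from the others on the log2 scale among the 47 genes, -2.54. Rrm1, the large subunit, was at 9.31, 10.7, 3.62, 16.4 and 18.7 FPKM in Lum1 to Lum5, and Tk1 (minus strand of chromosome 11, from 117815526 up to 117826092), the thymidine kinase of S phase, at 5.77, 5.74, 1.65, 9.93 and 10.7 FPKM in Lum1 to Lum5. Rrm1 and Tk1 separated the labels and Rrm2 did not. Tyms, which makes thymidylate, was at 4.64, 7.80, 5.44, 5.80 and 7.33 FPKM in Lum1 to Lum5, lowest in Lum1, with Lum3 at 0.85 of the mean of the others.

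The genes of S phase entry stayed under 5 FPKM. E2f1 (minus strand of chromosome 2, from 154559407 up to 154569892), the transcription factor that drives many of the genes above, was at 2.84, 2.80, 1.04, 2.42 and 4.95 FPKM in Lum1 to Lum5. Ccne1 (minus strand of chromosome 7, from 38097984 up to 38107534), which encodes a cyclin E that starts S phase, was at 1.28, 2.09, 0.472, 1.36 and 2.42 FPKM in Lum1 to Lum5, and Ccne2, its paralog, at 0.318, 0.383, 0.0870, 0.473 and 0.358 FPKM in Lum1 to Lum5. All 3 were lowest in Lum3, and none separated the labels.

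The labels give a comparison of luminal cells with and without Brca1. No gene of the table passed: in limma with Benjamini-Hochberg adjustment 0 of 11481 genes had an adjusted p under 0.05 (0.0%), and 0 of the 43 members tested did. At an unadjusted p under 0.05 in limma, 372 of these 11481 genes passed, 267 of them higher in Brca1 knockout (2.33%) and 105 lower. This is fewer than that threshold would pass on average if no gene differed. Orc1, Cdc6, Gins3 and Ccne2 had a mean under 1 FPKM and were not tested. The members leaned one way nevertheless. The difference, Brca1 knockout minus wild type in log2(FPKM + 1), was above 0 for 42 of 43 members (97.7%), against 65.5% of all genes tested, and its median was 0.62, against 0.11 over all genes tested. The medians were 0.53 and 0.01 after median-of-ratios scaling and 0.52 and 0.04 after quantile normalization. Without Lum3 the members' median was 0.24, against 0.03 over all genes, and 36 of 43 members (83.7%) were higher, against 54.2% of all genes. Much of the median difference thus depended on Lum3, a library labelled wild type.

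By ranges, 20 of the 43 members (46.5%) had both Brca1 knockout values above all 3 wild type values, against 17.5% of all genes tested. They were Mcm4, Mcm5, Mcm6, Mcm7, Gins1, Gins2, Rfc2, Rfc3, Rfc4, Rfc5, Rpa1, Pola1, Pola2, Prim1, Prim2, Pold1, Pole, Lig1, Rrm1 and Tk1. No member lay below in the same way, against 5.77% of all genes. Left without Lum3, the same 20 genes had both values above Lum1 and Lum2, against 23.5% of all genes. Lum3 was the lowest library for each of these 20, so leaving it out could not remove any of them. Of the 43 members tested 0 then lay below, against 15.6%. Cdc6, which was not tested, did lie below, at 0.960 and 0.903 FPKM in Lum4 and Lum5 against 1.18 and 1.23 FPKM in Lum1 and Lum2. At an unadjusted p under 0.05 in limma, 5 members were higher in Brca1 knockout (Rfc5, Pold1, Lig1, Rrm1 and Tk1), against 2.33% of all genes, and none was lower. Without Lum3 the number was 10 (Mcm5, Mcm6, Mcm7, Rfc5, Rpa1, Prim1, Pole, Lig1, Rrm1 and Tk1), against 4.76% of all genes, with 4 genes in both sets, and the adjusted p of each remained 0.675 or above.

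No single member passed the adjusted threshold, and the differences are given with their errors. In log2(FPKM + 1) the difference, Brca1 knockout minus wild type, was 1.33 with an SE of 0.62 and a 95% interval of -0.22 to 2.89 for Mcm6, the largest of the licensing genes. It was 0.97 with an SE of 0.68 and a 95% interval of -0.74 to 2.68 for Gins1 and 1.06 with an SE of 0.36 and a 95% interval of 0.16 to 1.95 for Rfc5, the largest among the activators and among the clamp and loader genes. Prim1, the largest of its role, gave 1.01 with an SE of 0.53 and a 95% interval of -0.33 to 2.35. The adjusted p (limma, Benjamini-Hochberg over all genes tested) was 0.924 for each of these 4 genes.

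Lig1 gave 1.05 with an SE of 0.39 and a 95% interval of 0.07 to 2.04, and Tk1 gave 1.19 with an SE of 0.47 and a 95% interval of 0.02 to 2.36, with an adjusted p of 0.924 in limma for both. E2f1 gave 0.54 with an SE of 0.42 and a 95% interval of -0.51 to 1.59. Among genes named whatever their difference, Mcm2 gave 0.62 with an SE of 0.48 and a 95% interval of -0.60 to 1.84, Rrm2 0.96 with an SE of 0.82 and a 95% interval of -1.10 to 3.01, Pcna 0.21 with an SE of 0.25 and a 95% interval of -0.43 to 0.84 and Ccne1 0.38 with an SE of 0.41 and a 95% interval of -0.64 to 1.40. The intervals of these 5 genes span 0. Their adjusted p in limma ran from 0.924 to 0.928.

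Without Lum3 the differences were smaller and the intervals narrower for most of these genes. Mcm6 was then at 0.73 with a 95% interval of 0.13 to 1.34, Rfc5 at 0.73 with a 95% interval of 0.32 to 1.15 and Tk1 at 0.74 with a 95% interval of 0.36 to 1.12. Rrm2, whose gap rested on Lum3, was at 0.13 with a 95% interval of -0.38 to 0.64, and Gins1 at 0.29 with a 95% interval of -0.13 to 0.72. Pcna was at 0.04 and Ccne1 at 0.10.

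**Figure D3:**
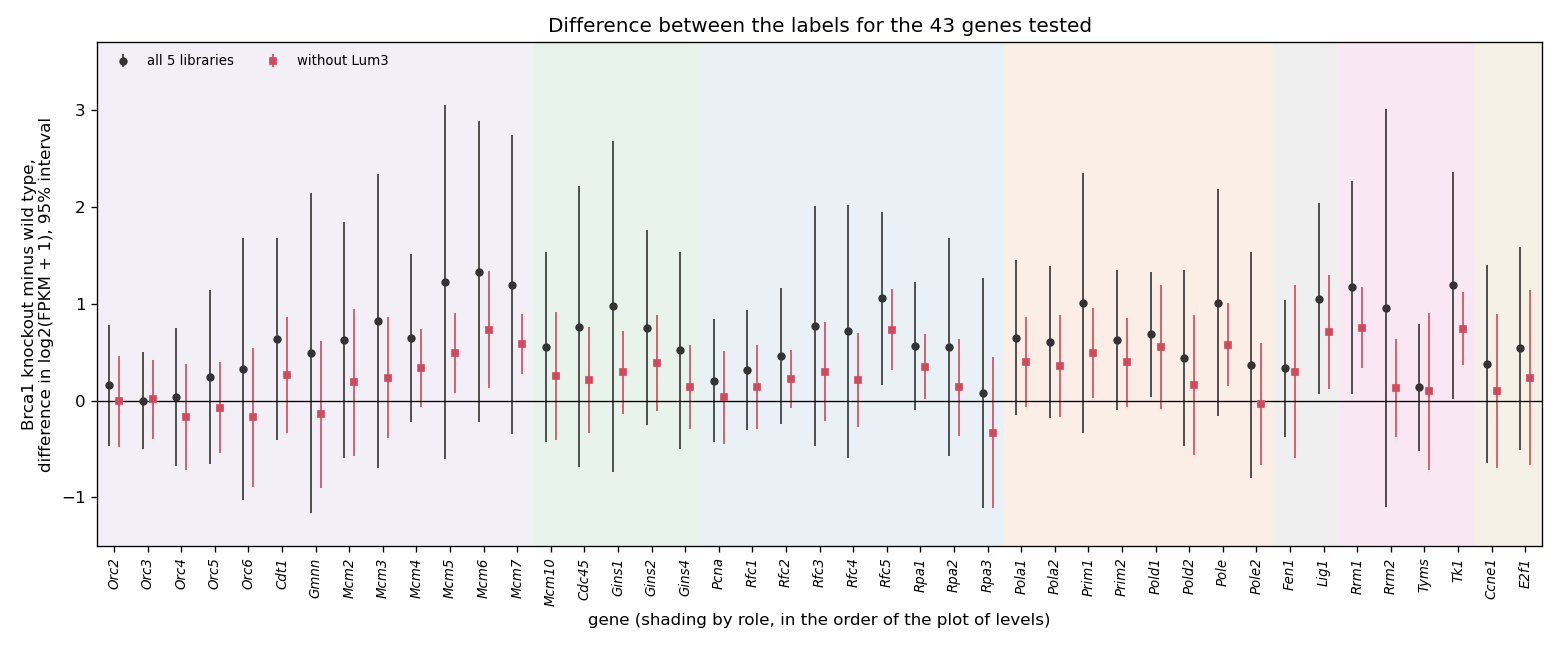
Difference in log2(FPKM + 1), Brca1 knockout minus wild type, with its 95% interval from limma (vertical axis), for the 43 genes tested (horizontal axis), from all 5 libraries (circles) and without Lum3 (squares). With Lum3, 42 of 43 points are above 0, and without it the median of the points goes from 0.62 to 0.24.

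Genes of the same pathway outside the 47 were taken from lists chosen by role. Of 28 other replication factors, such as the origin kinase Cdc7 and its activator Dbf4, 24 were tested and none passed the adjusted threshold in either direction. Their median was 1.53 in Lum3 and 2.21 to 2.48 in the other libraries, and 22 of 28 were lowest in Lum3, against 51.8% of all genes tested. Dscc1, a subunit of an alternative clamp loader, was at 0.0276 FPKM in Lum3 and at 1.74 to 2.09 FPKM elsewhere, whereas the topoisomerase Top1 was at 81.3 FPKM in Lum3, within the range of 59.2 to 88.7 FPKM of the others.

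The 9 genes of chromatin and methylation maintenance at the fork had a median of 2.22 in Lum3 and 3.39 to 3.85 in the others, and 0 of 9 passed in either direction. Uhrf1, which reads hemimethylated DNA, was at 8.02, 9.58, 1.22, 8.89 and 13.4 FPKM in Lum1 to Lum5. Its partner Dnmt1, the maintenance methyltransferase, was at 30.8, 30.3, 32.6, 36.4 and 32.2 FPKM in Lum1 to Lum5, close to level across the libraries. Of 11 other nucleotide synthesis genes none passed in either direction, with a median of 2.59 in Lum3 and 3.0 to 3.14 in the others. Dut, which breaks down dUTP, was at 1.80 FPKM in Lum3 against 7.0 to 8.0 FPKM, and Cad, the first enzyme of pyrimidine synthesis, was highest in Lum3, at 13.5 against 6.39 to 9.15 FPKM.

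Most genes of Rb, E2F and cyclin-dependent kinase control were also lowest in Lum3, 21 of 27, against 51.8% of all genes tested. Of these genes 24 were tested and 0 passed in either direction, with a median of 1.91 in Lum3 and 2.47 to 3.03 in the others. Rb1, an E2F repressor, went the other way and was highest in Lum3, at 7.97, 9.12, 31.9, 12.5 and 17.1 FPKM in Lum1 to Lum5. Its relatives Rbl1 and Rbl2 were lowest in Lum3, at 1.76 and 2.76 FPKM beside 2.51 to 4.66 and 2.85 to 4.99 FPKM elsewhere. Ccna2, the S phase cyclin A, was at 8.90, 11.2, 0.531, 14.2 and 18.5 FPKM in Lum1 to Lum5, and Cdkn1a, a kinase inhibitor, at 57.0, 43.6, 61.2, 60.4 and 60.1 FPKM in Lum1 to Lum5. The inhibitors Cdkn1b, Cdkn1c and Cdkn2c were lowest in Lum3, at 11.9, 0.760 and 0.862 FPKM. In the other libraries they were at 18.0 to 26.2, 0.887 to 2.71 and 3.38 to 7.18 FPKM. Cdkn2d was at 4.20 FPKM in Lum3, within the 2.37 to 4.90 FPKM of the others. E2f4 and E2f5, which are among the repressor-type E2F factors, were at 13.5 and 7.81 FPKM in Lum3. Elsewhere they were at 14.1 to 19.6 and 7.06 to 9.70 FPKM. E2f6, E2f7 and E2f8 were lowest in Lum3, at 4.92, 0.0700 and 0.240 FPKM. The other libraries had 6.10 to 7.37, 0.455 to 1.04 and 1.85 to 3.80 FPKM.

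The mitosis list had the same low library. All 17 of its genes, Mki67, Top2a and Cdk1 among them, were lowest in Lum3, as were 51.8% of all genes tested, and their median was 0.45 there, 2.69 and 2.58 in Lum1 and Lum2 and 3.38 and 3.71 in Lum4 and Lum5. The gap of Lum3, Lum3 minus the mean of the others, had a median of -2.73 over the 17 genes and of -1.11 over the 47. Between the labels 0 of the 17 passed, 16 of 17 had both Brca1 knockout values above all wild type values, against 17.5% of all genes tested. Their median difference was 1.62, or 0.81 without Lum3, against 0.11 and 0.03 over all genes tested. Mki67, the proliferation marker, was at 9.66, 10.7, 0.504, 18.3 and 27.2 FPKM in Lum1 to Lum5. Whether this list differs from the 47 genes was not tested.

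**Figure D4:**
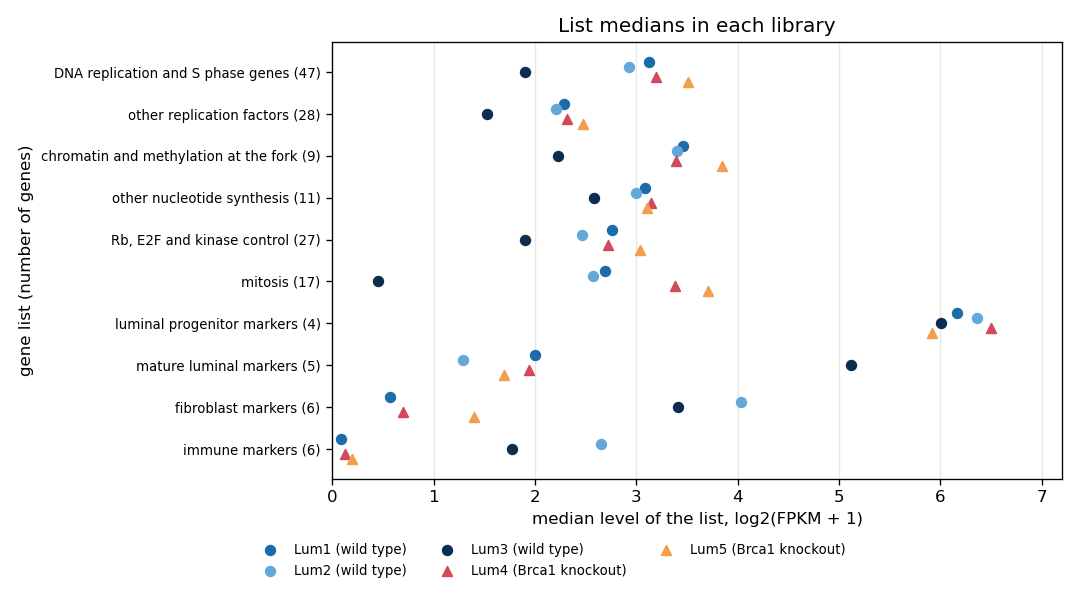
Median level in log2(FPKM + 1) (horizontal axis) of the 47 genes and of 9 other lists (vertical axis, number of genes in brackets) in each library, with circles for wild type and triangles for Brca1 knockout. Lum3 is the lowest library for the first 6 lists and the highest for the mature luminal markers, and Lum2 and Lum3 are the highest for the fibroblast and immune markers.

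Members with the E2F letters and members without them were both low in Lum3. Of the 35 members that were tested and matched to the promoter table, the 11 with the letters had a median of -1.39 for Lum3 minus the mean of the others, and the 24 without them -1.02. Over all genes tested the medians were -0.41 for the 418 with the letters and -0.27 for the 8186 without. Lum3 was the lowest library for 10 of the 11 members with the letters and for 22 of the 24 without, against 63.9% and 53.1% of all genes tested in the same 2 classes.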

How the data were processed

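Total RNA of sorted mouse luminal cells was sequenced in 5 libraries, and the authors deposited 1 FPKM value per gene and library. The submitters' processing notes name Trimmomatic 0.35, TopHat2 2.0.13, Cufflinks 2.2.1 and mm10. The methods of the study give another TopHat version, run with defaults, and the NEBNext Ultra kit, neither of which uses strand. The annotation is not given in the sources used here. FPKM values were used as deposited: of 24346 rows, 27 whose symbol had become a date were left out, and values were taken as log2(FPKM + 1), which understates differences of low genes. Depth was read off the steps between low values in 873 genes with transcripts over 3000 bases. Only 52.6% to 58.0% of these values lay within 0.15 of a whole fragment, so no counts were recovered and no count model was run. Fragment numbers are therefore approximate and cover counting error only.

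Labels were compared with limma 3.58.1 (lmFit, eBayes with trend, two-sided) in R 4.3.3. It covered the 11481 genes whose mean reached 1 FPKM, with Benjamini-Hochberg adjustment and a threshold of 0.05, after a test on simulated data. Alternatives were a pseudocount of 0.1, a minimum of 5 FPKM or none, median-of-ratios scaling, quantile normalization, no trend, array weights and each library left out. The members and lists were chosen with earlier results of these data known. All 47 genes are named, and the difference with its error is given for Mcm2, Pcna, Rrm2, Ccne1, E2f1 and the largest difference of each role. Coordinates are from GENCODE M21, on mm10, and promoters from RefSeq GRCm38.p6. The value of 1 immune marker is not reported here.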

Additional observations from a re-analysis of the deposited data

Results flagged for a closer look

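The labels' groups of 3 and 2 libraries are too small for a search for outlying libraries, so each gene was examined over all 5 libraries together. In 13 of the 47 genes Lum3 lay farther below the nearest library than Dixon's 95% criterion for 5 values allows. Among the licensing genes its values were 2.05 FPKM for Mcm3, 1.90 for Mcm5, 4.22 for Mcm7, 0.128 for Cdc6, 1.84 for Gmnn and 2.62 for Orc5. They were 0.352 FPKM for Cdc45, 0.618 for Gins1 and 5.78 for Gins4 among the helicase activators. The clamp loader genes Rfc2 and Rfc4 were at 10.4 and 2.73 FPKM, Rpa2 at 1.69 FPKM and Rrm2 at 1.12 FPKM. The median of the 6 helicase activators in Lum3, 0.69 in log2(FPKM + 1), met the same criterion against 2.37 to 2.73 in the other libraries. Chance flags about 5% of groups in any direction and library, against 13.0% of all 11481 genes tested. As low in Lum3 alone 7.39% of the genes tested were flagged, where chance would flag fewer than 5%. Cdc6 was flagged but is not among the genes tested. The genes share their libraries, so these are not independent results, and 849 genes tested were low in Lum3 by this criterion.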

How the results depend on the processing

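None of the members tested passed the adjusted threshold under any of the 12 alternatives, and 44 of all 47 genes were lowest in Lum3 under both scalings. Of 130 differences of 11 single genes under the alternatives, 2 changed sign, both with array weights, which gave Lum3 a weight of 0.148: Ccne1 at -0.0594 and Pcna at -0.0923. The number of genes called among all genes was 0, but 1 with array weights and 0 to 18 when a library was left out (18 without Lum4, 4 without Lum5 and 2 without Lum1), none of them a member. Without Lum4 or Lum5 the Brca1 knockout arm has 1 library, which is assumed to vary like the wild type ones. The members' median difference of 0.62 was 0.27 with array weights and 0.24 without Lum3, and 0.49 to 0.77 when another library was left out. The gap between the highest and lowest library medians, 1.62, was 0.59 without Lum3 and 1.29 to 1.62 without another library. The count of 20 members above all wild type values was 20 after median-of-ratios scaling and 19 after quantile normalization, both added after seeing the data. No paired analysis was possible because the labels share no replicate numbers between the groups. Depth limits the lowest genes: about 4.97 fragments stand behind Orc1 in Lum3.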
